A study of Rattus norvegicus with 24 samples.

Results

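The response of thoracic propriospinal (TPS) neurons 3 days after spinal transection was examined by comparing 4 arrays from transected rats with 4 arrays from uninjured rats collected 10 days after neuronal labeling. These are 8 of the 24 arrays of the series, chosen by their sample titles and not by any measured value. TPS neurons had been labeled by injecting the fluorescent tracer Fluoro-Gold into the lumbosacral enlargement of female Long Evans rats (77 ± 10 days old), and the transected group underwent a complete T9 transection after 1 week of tracer transport. The animals of the 3-day group were therefore collected 10 days after labeling, as were the controls, which the sample labels call "4d ctrl" and the study's own schedule places at 10 days after the tracer. The controls received the tracer but no injury. The second anesthesia, the surgery around the lesion, the antibiotic and pain relief given after it and the transection itself therefore all separate the groups and cannot be told apart. Labeled cells were cut one by one by laser from the intermediate gray matter of the thoracic cord rostral to the lesion, pooled for each animal, amplified with a Nugen kit and hybridized to 1 Affymetrix Rat Gene array for each animal.

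Propriospinal neurons link the segments of the spinal cord, and those studied here send axons from the thoracic cord to the lumbar segments that drive the hindlimbs. When an axon is cut, its cell body commonly turns on transcription factors and growth-related proteins, while microglia gather around it and astrocytes change shape and gene expression. A laser cut around a neuron also takes up pieces of the glial processes and synaptic endings that touch it.

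The labeled cell type was checked against markers, and the arrays held strong neuronal signal together with glial signal. Of the 15 neuronal markers listed, all 15 were measured, and the most intense were Snap25 (synaptic vesicle fusion), Thy1 (a surface glycoprotein) and Nefm (a neurofilament). Snap25 had log2 intensities of 12.25, 12.16, 12.27 and 12.26 in 3-day animals 1 to 4 and of 12.25, 12.10, 12.41 and 12.29 in 10-day controls 1 to 4. The groups overlapped for Snap25, with a log2 difference of -0.03 (SE 0.06). Astrocytic Fabp7 and Aldoc and oligodendrocytic Mbp were also intense, between 10.89 and 12.54 on all 8 arrays, whereas lymphocyte markers were dim, with list means of 5.42 to 5.73. In RNA pooled from many cells, a change in the number of cell fragments of one type and a change in RNA per cell cannot be told apart.

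Among probes that passed the test, increases outnumbered decreases. Of 23240 probes above the lowest 15 percent by mean log2 intensity, 671 were called (limma, adjusted p under 0.05), which is 2.89% of those tested. Of these, 465 rose (2% of tested probes) and 206 fell (0.886%). Increases were also larger than decreases, with a median log2 difference of 0.80 against 0.47 in size, and 155 increases but 7 decreases went beyond a 2-fold change. Over all tested probes there was no such excess, with a median difference of -0.0082 and 47.6% above 0, and increases made up 69.3% of calls but 57.1% with all 12 controls pooled. In the same model 0 probes were called between 3-week and 10-day controls (3315 at an unadjusted p under 0.05) and 1 between 5-week and 10-day controls (3065), whereas the 3-day contrast had 3302 at an unadjusted p under 0.05. Without the arrays of the other groups, limma called 21 probes higher and 1 lower (0.0947% of those tested). All 671 had an unadjusted p under 0.05 there, but they had been chosen for differences between these same arrays, so this gives no separate support.

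**Figure D1:**
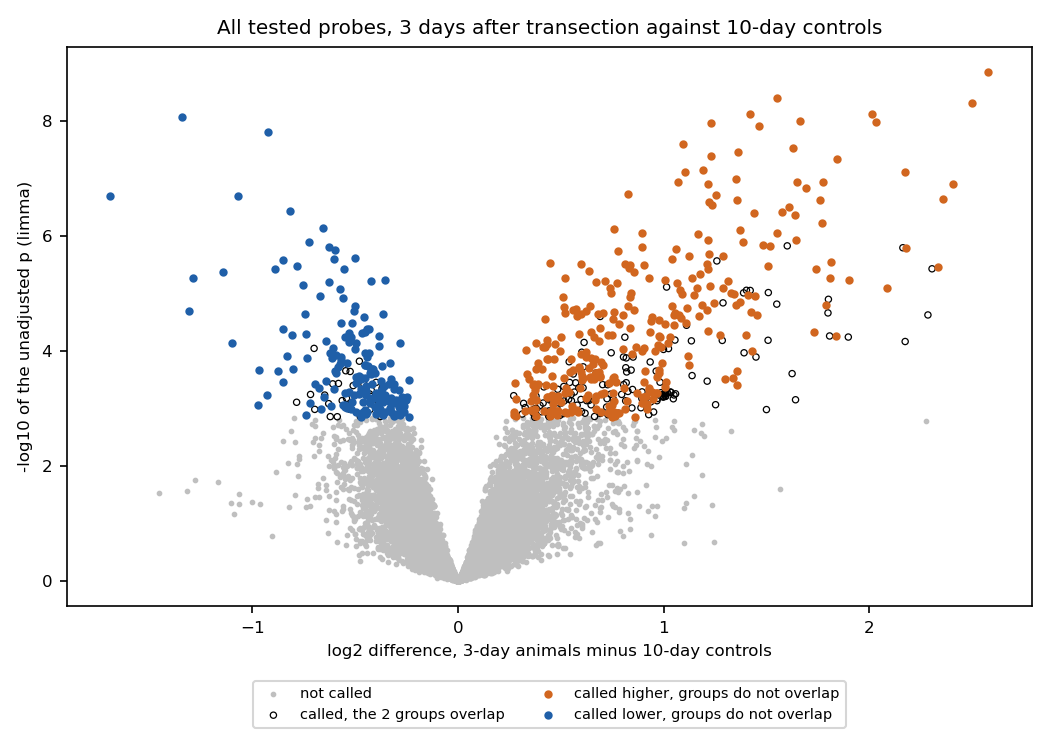
Each point is 1 of 23240 tested probes, with the log2 difference of 3-day animals minus 10-day controls on the horizontal axis and -log10 of the unadjusted limma p on the vertical axis. Called probes are orange (higher) or blue (lower) where the 4 arrays of one group all lie beyond the 4 of the other, and open where the groups overlap, and the 465 increases reach farther from 0 than the 206 decreases.

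The consistency of these calls across animals was then examined. Groups did not overlap for 321 of the 465 increases and 175 of the 206 decreases, beside 5.51% of all tested probes whose groups did not overlap in either direction (2.75% higher and 2.76% lower). Many also stood apart from all 12 controls, which include the controls of the contrast. The other controls shared the model's estimate of the spread. The share over all tested probes is thus not what called probes without a change would show, and no test was made. Every 3-day array lay above all 12 control arrays for 273 of the increases (1.6% of all tested probes did so) and below all 12 for 126 of the decreases (1.14%). When the model was refitted 8 times with 1 animal left out, 214 increases and 67 decreases were called every time.

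Each left-out animal was then set beside the calls made without it. Those calls used the same arrays of the other group, so the share over all tested probes, given beside each value, is not what probes without a change would show, and no test was made. Probes called higher without 3-day animal 1 lay above all 4 controls in that animal for 93.4% of 287 probes, compared with 19.7% of all tested probes. The shares were 90.4% for animal 2 and 92.1% for animal 4, but 51.7% for animal 3, whose share over all tested probes was 15.4%. Animal 3 still lay on the called side of the control mean for 86.9% of 673 probes. Animal 3 was the lowest of the 4 transected animals for 304 of the 465 increases (65.4%), with a median of 0.56 above the control mean against 0.93, 0.81 and 0.78 in animals 1, 2 and 4. Among decreases it was closest to the controls for 102 of 206. The response of animal 3 thus had the same direction and a smaller size for most called probes, and leaving it out changed the counts to 673 higher and 383 lower. Among the controls, probes called lower without control 3 lay beyond all 3-day arrays in that control for 57.2% of 271 probes, the smallest share of the 4 controls.

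**Figure D2:**
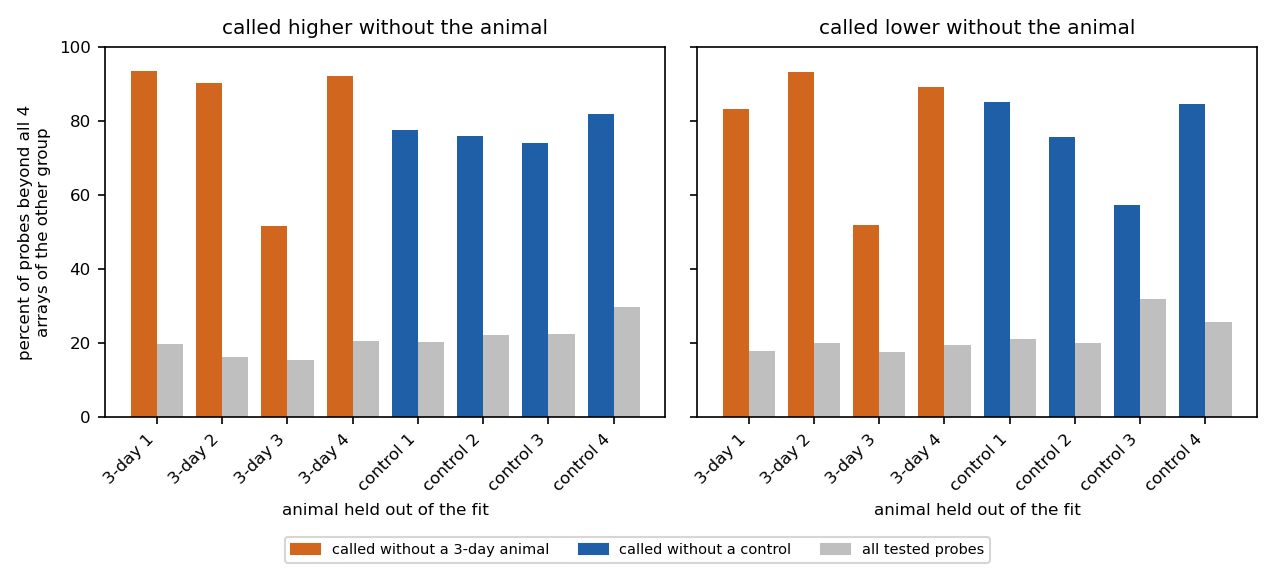
Percent of probes (vertical axis, 0 to 100) whose value in a held-out animal (horizontal axis) lies beyond all 4 arrays of the other group, for probes called higher (left) or lower (right) without that animal, in orange for 3-day animals and blue for controls. Gray bars give the same share over all tested probes, and 3-day animal 3 shows the smallest share on both sides, at 51.7% and 52%.

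Among the 48 gene lists, mitosis had the largest share of members that rose. Of 48 genes listed, 37 were tested with 1 probe each (2 lay below the intensity filter and 9 had no probe naming them alone), and 28 rose and 0 fell. Over all tested genes at 1 probe each, 2.46% rose and 1.22% fell. The median log2 difference of the 37 genes was 1.01, with 35 above 0. Ccnb1 and Ccna2, the cyclins that bring cells into mitosis, Plk1, a kinase of the spindle, Ttk, a kinase of the spindle checkpoint, and Nuf2, a kinetochore protein, had groups that did not overlap. Of the 37, 2 also appear in the study's main-text tables, Ccnb1 and Plk1, and Nuf2 is in its supplementary list of increases, all chosen on these arrays. Ccna2 had log2 intensities of 7.08, 7.0, 6.22 and 7.15 in 3-day animals 1 to 4 and of 5.87, 5.27, 5.54 and 5.33 in the controls. All transected animals exceeded all controls, with animal 3 lowest among them, and the log2 difference was 1.36 (adjusted p = 5.73e-05, SE 0.16).

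For the other 23 genes of mitosis that rose the groups overlapped, and the same pair of arrays met in nearly all of them. Without 3-day animal 3, groups did not overlap for 27 of the 28 genes, and without 10-day control 1 for 25 of 28, whereas leaving out any other single array left the count at 5. Top2a, the topoisomerase that untangles replicated chromosomes, stood at 8.90, 8.90, 7.75 and 9.18 in the transected animals and at 7.84, 6.11, 5.98 and 6.15 in the controls. Control 1 therefore lay just above animal 3, while controls 2 to 4 lay far below every transected animal, and Top2a rose by 2.16 (adjusted p = 0.000645, SE 0.33). Prc1, a protein that bundles microtubules of the central spindle, stood at 9.16, 9.51, 7.99 and 9.56 against 8.38, 6.04, 6.23 and 6.34, and rose by 2.31 (adjusted p = 0.00103, SE 0.37). The list median relative to the control mean was 1.34, 1.25, 0.26 and 1.39 in the transected animals and 0.58, -0.16, -0.34 and -0.12 in the controls. With 10-day controls 1 and 2 only, 9 of the 37 genes were called. Animal 3 was the lowest transected animal for other lists too, such as complement at 0.37. For markers of ependymal cells, which line the central canal, animal 3 was lowest and control 1 was the highest control. The other transected animals were ordered differently than for mitosis. The ependymal list medians were 0.91, 0.55, 0.13 and 0.45 in transected animals and 0.32, -0.24, -0.17 and 0.17 in controls. Of 8 listed, 4 were tested, the median difference was 0.53, and 1 rose, Rarres2, by 0.85 (adjusted p = 0.0391, SE 0.22) with overlapping groups. That count was 0 without 3-day animal 1, 2 or 4 or control 2 or 3. The part of these cells in the mitosis values was not tested.

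Genes that copy DNA before mitosis had fewer calls. Of 27 DNA replication genes tested, 3 rose (6 without 3-day animal 3) and 0 fell, with a median of 0.10. Rrm2, the small subunit of ribonucleotide reductase, stood at 10.47, 10.53, 9.40 and 10.70 in transected animals and at 10.01, 7.69, 6.97 and 7.29 in controls, so that control 1 again overlapped animal 3, and it rose by 2.29 (adjusted p = 0.00333, SE 0.42). Gins1, of the replicative helicase, rose by 1.19 (adjusted p = 0.00271, SE 0.21) with groups that did not overlap. The Mcm5 helicase subunit rose by 0.38 (adjusted p = 0.029, SE 0.09) from a low intensity. Cdkn2c, an inhibitor of G1 cyclin-dependent kinases, and Kpna2, a nuclear import factor, are on neither list and were chosen after their values were seen. Both rose, by 1.45 (adjusted p = 0.0112, SE 0.31) and 1.42 (adjusted p = 0.00178, SE 0.24), and both had control 1 above animal 3.

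Promoters of mitosis genes commonly carry the CCAAT box, which binds the factor NF-Y, and the cell cycle homology region, a short element that represses them outside late cell cycle. The promoters of 4 genes of mitosis that rose are printed because the list as a whole shares these elements. They are the 4 of smallest p among called members that hold both. Each spans the gene start in RefSeq on GRCr8 and is written in the direction of transcription. They lie at chr1:186147408-186147707 on the plus strand (Plk1), chr10:84473044-84473343 on the minus strand (Top2a), chr1:143659231-143659530 on the plus strand (Prc1) and chr2:111966577-111966876 on the minus strand (Ect2). Capitals mark CCAAT or its reverse complement ATTGG, and TTTGAA or TTCGAA with the reverse complement TTCAAA.
Plk1: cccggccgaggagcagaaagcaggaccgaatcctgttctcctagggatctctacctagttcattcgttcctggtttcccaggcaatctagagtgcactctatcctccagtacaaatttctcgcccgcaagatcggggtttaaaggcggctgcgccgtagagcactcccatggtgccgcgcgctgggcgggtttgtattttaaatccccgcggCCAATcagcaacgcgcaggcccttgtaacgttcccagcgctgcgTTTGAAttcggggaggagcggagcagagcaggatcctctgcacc
Top2a: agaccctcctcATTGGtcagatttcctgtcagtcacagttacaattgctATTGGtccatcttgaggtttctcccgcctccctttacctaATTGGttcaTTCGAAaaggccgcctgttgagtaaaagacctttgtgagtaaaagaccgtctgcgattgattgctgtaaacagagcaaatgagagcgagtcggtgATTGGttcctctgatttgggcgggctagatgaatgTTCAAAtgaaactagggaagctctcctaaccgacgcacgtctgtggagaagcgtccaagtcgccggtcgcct
Prc1: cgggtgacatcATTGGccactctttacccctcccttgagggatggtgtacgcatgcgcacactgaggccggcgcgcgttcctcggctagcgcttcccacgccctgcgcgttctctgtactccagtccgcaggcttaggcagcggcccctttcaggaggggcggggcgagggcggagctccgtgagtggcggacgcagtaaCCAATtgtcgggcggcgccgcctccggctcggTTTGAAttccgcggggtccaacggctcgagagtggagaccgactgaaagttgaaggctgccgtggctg
Ect2: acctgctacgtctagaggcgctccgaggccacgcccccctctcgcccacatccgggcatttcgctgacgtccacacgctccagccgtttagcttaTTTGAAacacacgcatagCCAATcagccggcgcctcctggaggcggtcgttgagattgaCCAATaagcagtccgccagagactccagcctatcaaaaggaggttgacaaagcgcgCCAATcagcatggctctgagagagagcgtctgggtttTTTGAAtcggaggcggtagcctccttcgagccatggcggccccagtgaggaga

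The Plk1 promoter holds 1 CCAAT box, and a homology region begins 44 bases after the box begins. From the nearest box before it, that distance is 32 bases in Prc1, which holds 2 boxes and 1 homology region. Top2a holds 4 boxes and 2 homology regions, at distances of 9 and 35 bases. Ect2 holds 3 boxes and 2 homology regions, one at 37 bases and one with no box before it. Promoters were matched for 10285 tested genes, of which 251 rose and 120 fell. CCAAT was found in 75% of 28 promoters of the mitosis list and in 38% of all promoters. The homology region (TTTGAA or TTCGAA on either strand) was found in 75% of the mitosis list and 15.4% of all promoters, and both together in 60.7% and 6.4%. Among all genes that rose, 25.1% held the homology region, and 20.3% did when the mitosis and DNA replication lists were set aside, compared with 5.8% of genes that fell. The DNA replication list differed from the mitosis list, with the homology region in 13.6% of 22 promoters but an E2F-type sequence (TTTCGCGC or TTTGGCGC) in 50%, which 1.3% of all promoters held. GAGGAAGT, a sequence bound by the myeloid factor PU.1, was in 5.6% of promoters of genes that rose, 2.6% of all and 0 of 120 that fell. It was in 3 of 14 promoters of the Fc receptor list, but in 0 of 8 of the resident microglia list and 0 of 8 of the complement list. These are counts of letters in a window and were not tested.

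**Figure D3:**
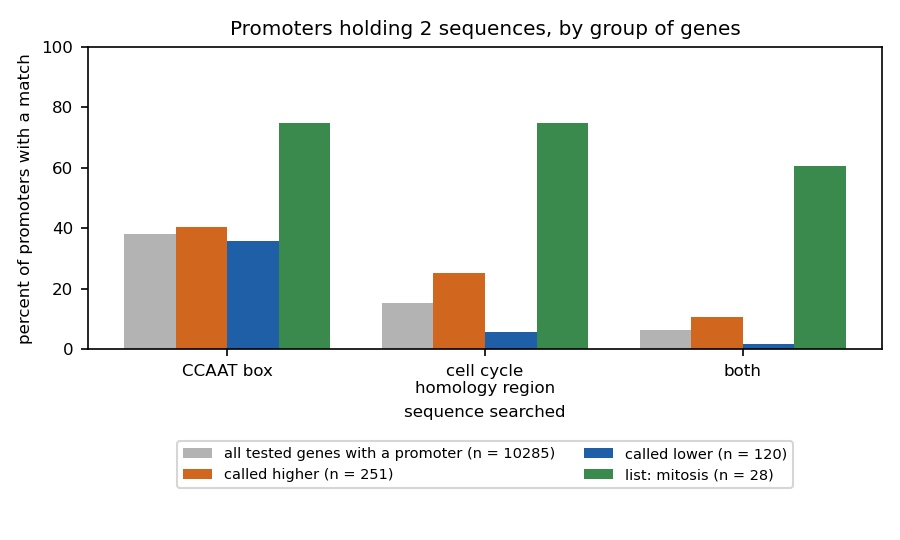
Percent of RefSeq promoters (vertical axis) that hold the CCAAT box, the cell cycle homology region or both (horizontal axis), for all tested genes with a promoter in gray, genes that rose in orange, genes that fell in blue and the mitosis list in green. The green bars reach 75%, 75% and 60.7%, beside gray bars of 38%, 15.4% and 6.4%.

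Genes of phagocytes and of antibody and complement recognition also rose. Of 21 genes of Fc receptors and the signaling adaptors with which they work, 12 rose and 0 fell, all 21 were above 0, and the median was 0.76. Fcrl2, an Fc receptor-like protein, had log2 intensities of 9.03, 8.92, 7.79 and 8.51 in the transected animals and 6.80, 7.0, 5.47 and 5.53 in the controls. Lcp2, an adaptor downstream of such receptors, stood at 7.63, 8.06, 7.22 and 7.83 against 6.88, 6.77, 5.91 and 6.89, with a log2 difference of 1.08 (adjusted p = 0.00332, SE 0.20). In both genes animal 3 was the lowest transected animal and remained above the highest control. Fcgr1a, the high-affinity receptor for IgG, rose by 1.29 (adjusted p = 0.000808, SE 0.20), and Ptpn6, a phosphatase that restrains these receptors, by 0.72 (adjusted p = 0.00142, SE 0.12). Of 12 complement genes, 5 rose and 0 fell, with a median of 0.82. They were the 3 chains of C1q, C3, which is cleaved in every complement pathway, and Cfp, which stabilizes the C3 convertase. The Fc receptor count was 7 without 3-day animal 1, 2 or 4, and the complement count was 3 without 3-day animal 1. C3 stood at 10.54, 10.25, 9.60 and 9.90 against 8.46, 8.98, 8.64 and 8.77, with groups apart and a log2 difference of 1.35 (adjusted p = 0.0164, SE 0.30).

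Markers of immune cells rose beside these lists. All 14 markers of resident microglia were above 0 with a median of 0.87, and 7 rose. Of 11 markers of blood-derived macrophages, all were above 0 with a median of 0.61, and 5 rose. In limma 0 of 9 neutrophil markers (median -0.05) and 0 of 8 lymphocyte markers (median -0.01) were called, each list with 1 gene at an unadjusted p under 0.05. Over all tested genes 2.46% rose, so 0 calls in lists this short is near that share. Of the neutrophil markers 4 were above 0 and 5 below. The most intense, S100a9 and S100a8, had differences of 1.10 (SE 0.86) and 1.24 (SE 0.96) with overlapping groups. S100a8 stood at 7.73, 7.85, 8.15 and 7.83 in transected animals and at 4.79, 6.80, 8.43 and 6.58 in controls. Olfml3, secreted by microglia, stood at 8.09, 8.16, 8.35 and 8.13 in transected animals and at 7.05, 7.30, 5.74 and 7.24 in controls. Its transected animals were close together and above all controls, and control 3 lay well below the other controls (log2 difference 1.35, adjusted p = 0.00267, SE 0.24). The same control was lowest for the microglial list as a whole, whose mean log2 intensity ran from 7.17 in control 3 to 8.38 in controls and from 8.52 to 9.0 in transected animals. Without control 3 the median difference of the microglial markers was 0.49 and 6 of the 14 were called, and without 3-day animal 1, 2 or 4 the count was 4. The macrophage count was 3 without 3-day animal 1 or 2. The most intense markers C1qa, C1qc and Tyrobp were at 8.13 or more on all 8 arrays. How much of the rise in the Fc receptor, complement and lysosomal lists came with these markers was not tested.

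Among 21 pan-leukocyte genes, 9 rose and 0 fell, or 5 rose without 3-day animal 1 or 2. They included Ptprc, the common leukocyte antigen CD45, at 1.15 (adjusted p = 0.00197, SE 0.20), Cd14, a receptor for bacterial lipid, at 0.93 (adjusted p = 0.00571, SE 0.18), and Rac2, a GTPase of blood cells, at 0.52 (adjusted p = 0.00134, SE 0.09). Cd68, a lysosomal protein of macrophages, rose by 1.62 (adjusted p = 0.0169, SE 0.37), but control 2 at 8.56 overlapped animal 3 at 8.47 while control 3 was at 5.89. Of 25 lysosomal genes, 8 rose and 0 fell with a median of 0.36. Grn, the lysosomal glycoprotein progranulin, stood at 9.86, 9.89, 9.41 and 9.67 against 9.06, 9.12, 7.93 and 8.70, and rose by 1.00 (adjusted p = 0.00445, SE 0.19). With controls 1 and 2 only, 0 of the 25 were called, and the count was 3 without 3-day animal 1 or 2, 5 without 3-day animal 4 and 4 without control 1 or control 3. Of 33 chemokine and cytokine genes, Ccl2, which attracts monocytes, and Cxcl14 rose. Cxcl13, first among the increases in the study's main-text table, had the largest difference of the list, 2.28 (SE 0.63), and narrowly missed the threshold (adjusted p = 0.0541). Its groups did not overlap, though it did not stand apart from all 12 controls. With the 8 arrays fitted alone, limma called it (adjusted p = 0.0179). Ccl2 stood at 8.73, 7.70, 9.38 and 7.88 against 6.48, 6.82, 6.59 and 6.55, and here animal 3 was the highest of the transected animals. Of 16 genes of toll-like receptor signaling, Tlr2 and Tlr7 rose (5 genes without 3-day animal 3), by 1.08 (adjusted p = 0.00356, SE 0.20) and 1.42 (adjusted p = 0.00323, SE 0.26).

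No interferon-stimulated gene passed the test. Of 26 tested, 0 rose and 0 fell in limma, 10 had an unadjusted p under 0.05, 21 were below 0 and the median was -0.30. Mx1 and Isg15 were chosen after their values were seen. The controls differed among themselves. Mx1, an antiviral GTPase, stood at 8.67 and 8.27 in controls 1 and 4 but at 5.90 and 5.05 in controls 2 and 3, and at 4.93, 6.38, 5.29 and 5.46 in the transected animals. Isg15, a ubiquitin-like protein, stood at 10.58, 8.46, 6.94 and 10.48 in the controls and at 7.49, 8.16, 7.62 and 7.91 in the transected animals. The log2 difference of Mx1 was -1.45 (adjusted p = 0.271, SE 0.62). Without 3-day animal 3, 1 of the 26 was called higher. Without control 3, which was lowest for the list, 4 of the 26 genes were called lower with a median of -0.47.

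**Figure D4:**
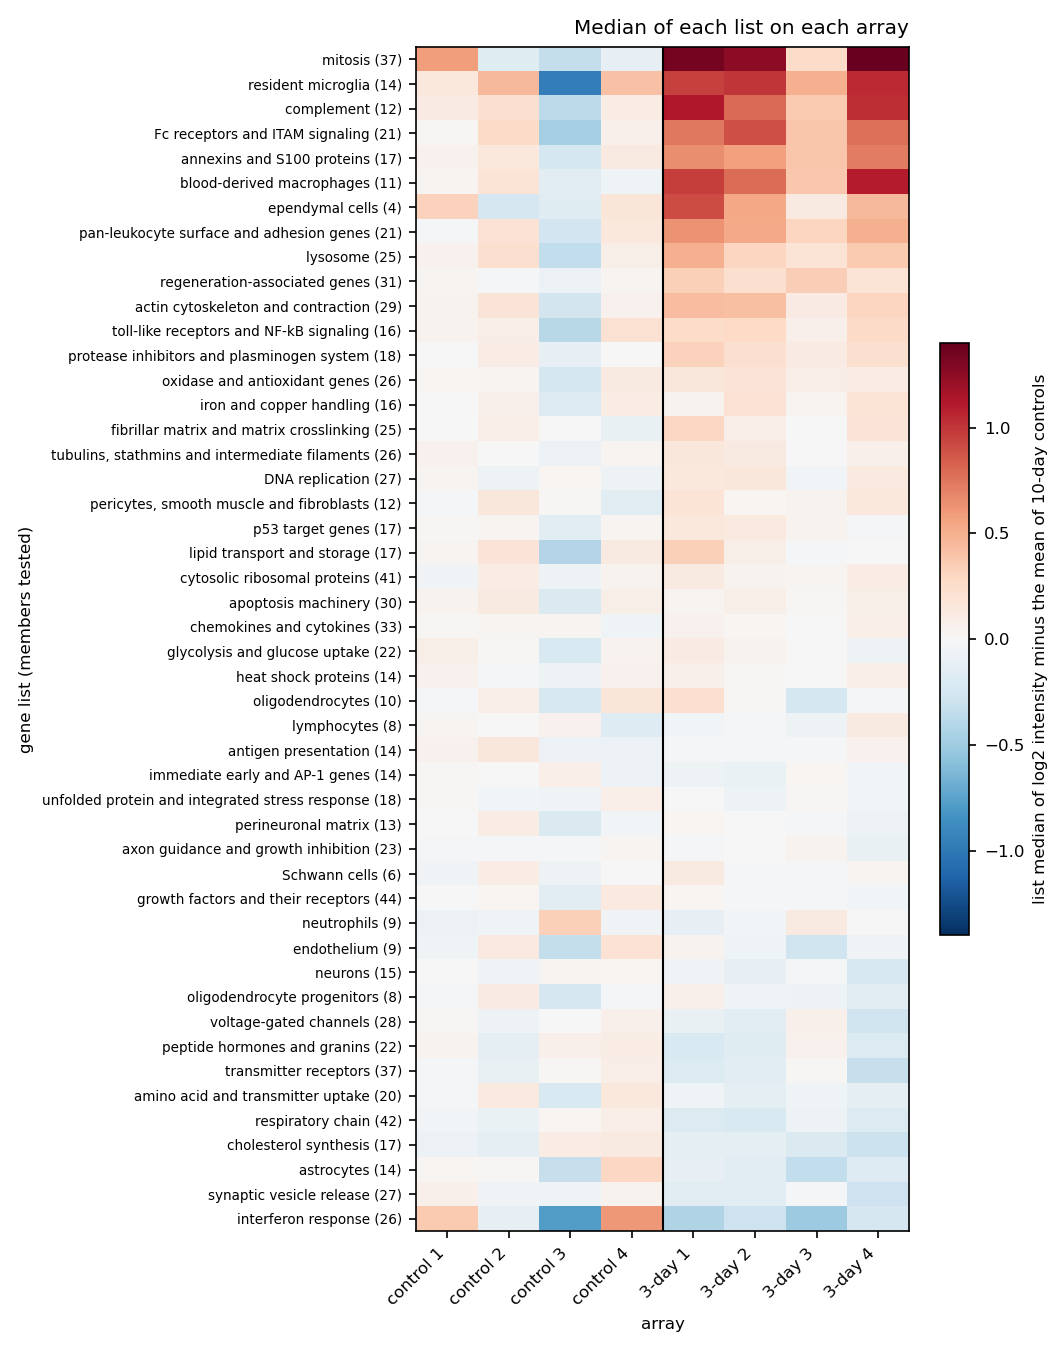
Each cell is the median over the tested members of a list (vertical axis, number tested in parentheses) of log2 intensity minus the mean of the 10-day controls, for 4 controls and 4 transected animals (horizontal axis). Mitosis leads the plot at 1.34, 1.25, 0.26 and 1.39 in transected animals 1 to 4, and control 3 stands out as low for the microglial (-0.97) and interferon (-0.78) lists.

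The 12 largest increases were taken outside the tables in the study's main text, though its supplementary gene lists hold some of them, among them Nuf2, Serpina3n, C1qc and Gngt2. Tagln, an actin-binding protein, stood at 11.02, 11.002, 9.88 and 10.87 against 9.48, 8.62, 7.08 and 8.27, and Vim, an intermediate filament, at 11.31, 11.22, 10.44 and 11.18 against 9.97, 9.71, 8.21 and 9.10. In both, 3 transected animals were close together, animal 3 was lower, and control 3 was the lowest array. Timp1, an inhibitor of matrix metalloproteinases, stood at 10.62, 10.18, 9.46 and 10.04 against 8.64, 8.83, 6.86 and 7.62. S100a4, a calcium-binding protein, rose by 1.73 (adjusted p = 0.00565, SE 0.34). Serpina3n, a protease inhibitor, stood at 6.94, 7.26, 6.72 and 7.13 against 4.92, 6.0, 5.62 and 4.76, with groups well apart. Pimreg, a mitotic regulator, rose by 1.61 (adjusted p = 0.000201, SE 0.22) and Gngt2, a G protein subunit, by 1.52 (adjusted p = 0.000644, SE 0.23). Folr2, a folate receptor of macrophages, stood at 7.87, 8.07, 7.55 and 8.27 against 6.39, 6.63, 6.45 and 6.09, and rose by 1.55 (adjusted p = 2.73e-05, SE 0.16). Folr2 was the one gene of the 12 that was also called when the 8 arrays were fitted alone (adjusted p = 0.0179).

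**Figure D5:**
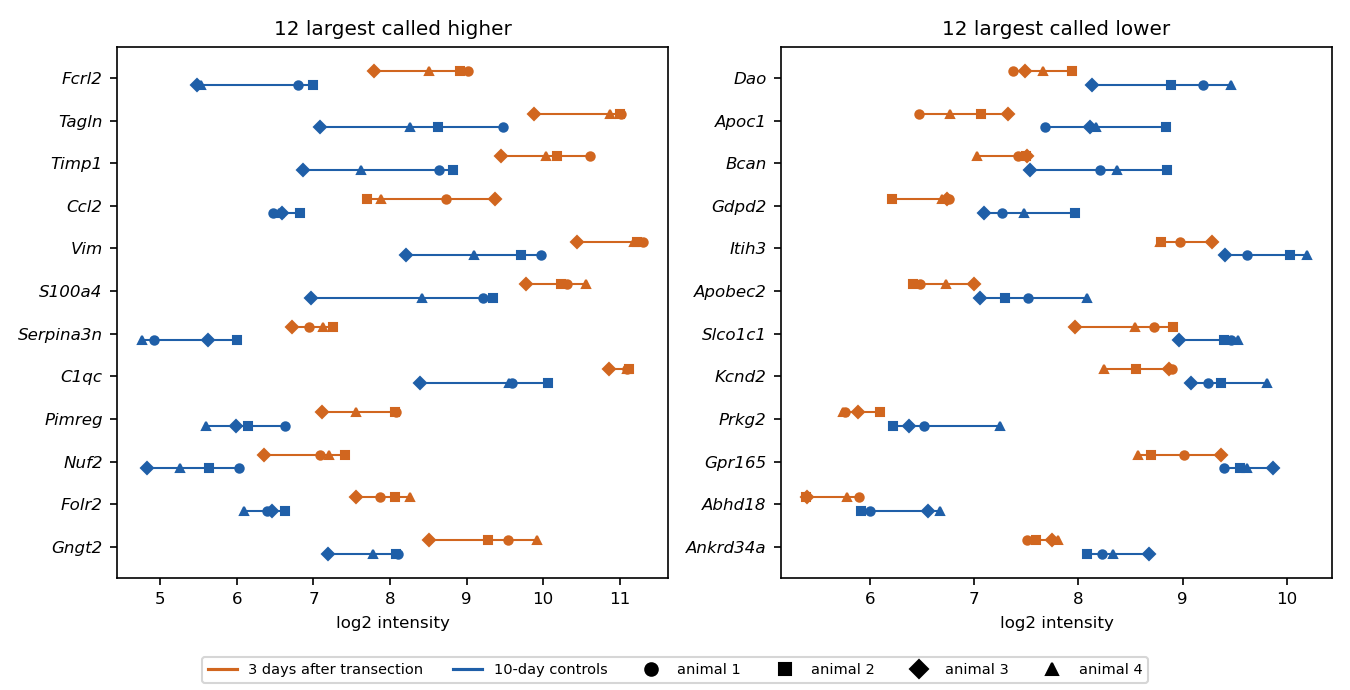
Log2 intensity (horizontal axis) of the 12 largest increases (left) and 12 largest decreases (right) outside the study's main-text tables, with the 4 transected animals in orange and the 4 controls in blue, lines spanning each group and 1 marker shape for each animal number. The groups do not overlap for any gene, a condition of the choice, and the spans of the increases are wider, as for Tagln, whose controls run from 7.08 to 9.48.

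The cytoskeletal and calcium-binding lists also held increases. Of 29 actin-related genes 8 rose and 0 fell (median 0.29), among them Flna, a crosslinker of actin, at 1.42 (adjusted p = 2.73e-05, SE 0.15) and Actb at 0.60 (adjusted p = 0.00332, SE 0.11). The actin count was 4 without 3-day animal 1 or 2 and 5 without 3-day animal 4 or control 3. Of 17 annexins and S100 proteins 6 rose and 1 fell (median 0.64). Anxa2 and S100a10, which form a complex at the plasma membrane, rose by 0.99 (adjusted p = 0.00845, SE 0.20) and 0.60 (adjusted p = 0.00096, SE 0.09), whereas S100a1 fell by 0.42 on the log2 scale (adjusted p = 0.0159, SE 0.09). Of 18 protease inhibitors and plasminogen genes 5 rose, and of 25 genes of fibrillar matrix 3 rose (5 without 3-day animal 3). Lox, which crosslinks collagen, stood at 8.54, 9.38, 7.15 and 8.5 against 6.33, 6.05, 5.62 and 5.94, and rose by 2.41 (adjusted p = 0.000117, SE 0.31). In the perineuronal matrix list 2 of 13 genes were called, in opposite directions. Ncan, a chondroitin sulfate proteoglycan, rose by 1.03 (adjusted p = 0.00627, SE 0.20), and Bcan, of the same family, stood at 7.42, 7.50, 7.51 and 7.03 against 8.21, 8.85, 7.54 and 8.37. The values of Bcan in animal 3 and control 3 differed by little, and its log2 difference was -0.87 (adjusted p = 0.0164, SE 0.20).

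Genes tied to the neuronal response to axotomy rose as well. Of 31 regeneration-associated genes 8 rose and 0 fell, 28 were above 0 and the median was 0.32, though 11 of the list also appear in the study's main-text tables, chosen on these arrays. Atf3, a transcription factor of injured neurons, stood at 8.35, 8.57, 8.12 and 7.59 against 6.18, 6.07, 6.11 and 5.57. Stat3, a transcription factor of cytokine signaling, stood at 8.39, 8.49, 8.69 and 8.19 against 7.82, 7.43, 7.14 and 7.78, with animal 3 highest, and rose by 0.89 (adjusted p = 0.000644, SE 0.13). Increases of Klf6, a zinc finger factor, Gap43, a protein of growth cones, and Jun were smaller, at 0.43 (adjusted p = 0.00767, SE 0.09), 0.28 (adjusted p = 0.0214, SE 0.07) and 0.34 (adjusted p = 0.017, SE 0.08), each with groups apart. The list median relative to controls was 0.33, 0.22, 0.34 and 0.19 in animals 1 to 4, so animal 3 was not the weakest here, unlike for mitosis. Of 14 heat shock genes 3 rose, all small heat shock proteins. Hspb1 stood at 10.62, 10.73, 10.34 and 10.71 against 8.55, 8.76, 7.44 and 7.66, Hspb8 rose by 0.78 (adjusted p = 0.000685, SE 0.12) and Cryab by 0.52 (adjusted p = 0.00325, SE 0.10). In limma 0 of 14 immediate early genes and 0 of 18 genes of the unfolded protein response were called (3 and 4 at an unadjusted p under 0.05), with a median of -0.02 for both. Without 3-day animal 3, 1 immediate early gene was called lower, and 2 genes of the unfolded protein response were called higher and 1 lower. The unfolded protein response also had 1 gene called higher without control 2 and 2 with a replicate block.

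Among 44 growth factors and receptors, 6 rose and 3 fell, but 3 rose without 3-day animal 1, 3-day animal 2 or control 3, and 5 fell without control 3. Of the 44, 6 also appear in the study's main-text tables, chosen on these arrays, among them Ret, Fgf9 and Spry2. Ret, the signaling receptor for the GDNF family, stood at 9.77, 9.58, 9.56 and 9.48 against 8.37, 8.38, 7.64 and 8.15, with the transected animals within a narrow range, and rose by 1.46 (adjusted p = 2.84e-05, SE 0.16). Igfbp2, a binding protein for insulin-like growth factors, rose by 1.35 (adjusted p = 0.000169, SE 0.18), whereas Fgf9, a fibroblast growth factor, and Spry2, an inhibitor of growth factor signaling, fell by 0.53 (adjusted p = 0.00735, SE 0.11) and 0.75 (adjusted p = 0.00158, SE 0.13) on the log2 scale. Of 17 p53 target genes, Cdkn1a, an inhibitor of cyclin-dependent kinases, rose by 1.11 (adjusted p = 0.00428, SE 0.21) beside Gadd45a and Fas. Of 30 genes of apoptosis, 1 rose, a share near that of all genes. This was Dap, at 0.91 (adjusted p = 0.0342, SE 0.23), called in 4 of the 8 fits that left out an animal. The apoptosis count was 0 without 3-day animal 1, 2 or 4 or control 3 and after median centring, and 2 without 3-day animal 3, control 1 or control 2. Genes of iron and oxidants also included increases, 3 of 16 (5 without 3-day animal 3) and 6 of 26, with 0 decreases in either list. Cp, the copper oxidase ceruloplasmin, stood at 9.27, 9.39, 8.62 and 9.27 against 7.68, 7.70, 6.33 and 7.75, and Hmox1, which breaks down heme, rose by 1.29 (adjusted p = 0.00169, SE 0.22).

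Several further increases of a log2 difference near 1 lay outside all lists, and were chosen after their values were seen. Rbm3, an RNA-binding protein induced by cold, stood at 9.01, 8.90, 9.38 and 8.81 against 7.76, 7.94, 7.80 and 7.74, with a control spread of 0.09 (SD, n = 4) and an increase of 1.22 (adjusted p = 0.000117, SE 0.15). Pdk4, a kinase that restrains pyruvate oxidation, stood at 8.81, 8.38, 8.98 and 8.13 against 7.52, 7.25, 6.85 and 7.21, and rose by 1.37 (adjusted p = 0.000417, SE 0.20). Gpd1, a glycerol phosphate dehydrogenase, rose by 1.37 (adjusted p = 0.00252, SE 0.24). Fkbp5 and Sgk1, which glucocorticoids are known to induce, rose by 1.01 (adjusted p = 0.0212, SE 0.24) and 0.90 (adjusted p = 0.0334, SE 0.23). Fkbp5 was highest in animal 3 at 8.63 and lowest in animal 4 at 7.42, just above control 4 at 7.41. Zfp36, which destabilizes cytokine mRNAs, was uniform in transected animals, at 7.43, 7.49, 7.55 and 7.57 against 6.66, 6.95, 6.29 and 6.72.

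Decreases were fewer and smaller. Among astrocyte markers, 4 of 14 fell and 0 rose (median -0.17), and the list median relative to controls was -0.12, -0.15, -0.34 and -0.18 in transected animals but also -0.32 in control 3. Of the list, 3 genes, all of which fell, also appear in the study's main-text tables, chosen on these arrays (Slc6a11, Slc7a10 and Kcnj10). Those that fell handle transmitters, ions and junctions. Slc6a11, a GABA transporter, stood at 9.01, 8.75, 8.98 and 8.58 against 9.95, 10.25, 9.91 and 10.57, and was the one decrease called when the 8 arrays were fitted alone (adjusted p = 0.0277). Slc7a10, a transporter of small amino acids, stood at 7.43, 7.41, 7.56 and 7.23 against 8.02, 8.04, 8.41 and 8.45, and fell by 0.82 on the log2 scale (adjusted p = 0.00023, SE 0.11). Kcnj10, a potassium channel of astrocytes, fell by 0.89 (adjusted p = 0.00103, SE 0.14) and Gjb6, a gap junction protein, by 0.45 (adjusted p = 0.0446, SE 0.12). In the list of uptake carriers, Slc38a2, a transporter of neutral amino acids, also fell, by 0.74 (adjusted p = 0.00593, SE 0.15), whereas Slc3a2 rose. Slc38a2 is in those tables too, as are the other carriers of that list that fell. Not all astrocyte markers pointed down. Fabp7, a fatty acid binding protein and the most intense of them, stood at 12.54, 12.54, 12.28 and 12.53 against 12.27, 12.28, 11.68 and 12.16. Every transected animal lay above all 12 controls, and its log2 difference of 0.38 (SE 0.11) missed the threshold (adjusted p = 0.0727). Without 3-day animal 3, 1 astrocyte marker was called higher. The other intense astrocyte transcripts Aldoc and S100b were at -0.15 (SE 0.09) and -0.20 (SE 0.08) and did not pass the test.

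The 12 largest decreases outside the study's main-text tables included enzymes, transporters and channels. Dao, which oxidizes D-amino acids, stood at 7.38, 7.94, 7.49 and 7.66 against 9.20, 8.89, 8.13 and 9.46, and Apoc1, an apolipoprotein, at 6.48, 7.07, 7.33 and 6.77 against 7.68, 8.85, 8.11 and 8.17. Itih3, a hyaluronan-binding heavy chain, stood at 8.98, 8.80, 9.29 and 8.79 against 9.62, 10.03, 9.41 and 10.19, and fell by 0.85 (adjusted p = 0.00519, SE 0.16). For Dao and Itih3 control 3 was the control nearest the transected animals. Slco1c1, which carries thyroid hormone, fell by 0.80 (adjusted p = 0.0159, SE 0.18) and Gdpd2, a phosphodiesterase, by 0.85 (adjusted p = 0.0209, SE 0.20). Thrb, a thyroid hormone receptor chosen after its values were seen, fell by 0.57 (adjusted p = 0.0043, SE 0.11). Prkg2, a cyclic GMP-dependent kinase, fell by 0.72 (adjusted p = 0.0342, SE 0.18), and it and Abhd18 and Gpr165 were each called in 4 of the 8 fits that left out an animal. Ankrd34a stood at 7.51, 7.60, 7.74 and 7.81 against 8.23, 8.09, 8.68 and 8.33, and was called in all 8.

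Most neuronal genes did not pass the test, and most had differences below 0. Over all tested genes at 1 probe each, 1.22% fell, a smaller share than in each neuronal list named here, though these counts are small. Of 15 neuronal markers 2 fell, Rbfox3, the nuclear antigen NeuN, and Ina, the filament alpha-internexin. Rbfox3 stood at 8.74, 8.36, 8.64 and 8.20 against 8.75, 8.84, 8.94 and 9.02, so that animal 1 and control 1 nearly met, and fell by 0.40 (adjusted p = 0.0386, SE 0.10). The median of the 15 was -0.09, and the count was 1 without 3-day animal 2, 3-day animal 4 or any of controls 2, 3 and 4. Of 27 genes of synaptic vesicle release 26 were below 0 with a median of -0.18, but 1 fell, Rab3c, a GTPase of vesicles, by 0.50 (adjusted p = 0.00273, SE 0.09). The vesicle count was 4 without 3-day animal 3, 2 without control 3 and 4 with all 12 controls pooled. Of 37 transmitter receptors 31 were below 0 with a median of -0.15, and Htr1a, a serotonin receptor, and Grin2c, an NMDA receptor subunit, fell by 0.64 (adjusted p = 0.0202, SE 0.15) and 0.56 (adjusted p = 0.0356, SE 0.14). Of 28 voltage-gated channels the potassium channels Kcnd2 and Kcnc1 fell, Kcnd2 at 8.90, 8.56, 8.87 and 8.24 against 9.24, 9.37, 9.09 and 9.81. The channel count was 6 without 3-day animal 3 and 1 without any other transected animal or control 3, and the receptor count was 1 without 3-day animal 1, 2 or 4 or control 2 and 0 without control 4. Among genes chosen after their values were seen, the calcium-dependent kinases Camk4 and Camkk1 fell by 0.46 (adjusted p = 0.00348, SE 0.08) and 0.50 (adjusted p = 0.0185, SE 0.11), the calcium sensor Hpca by 0.38 (adjusted p = 0.00826, SE 0.08) and the phosphatase regulator Ppp1r1b by 0.56 (adjusted p = 0.00215, SE 0.10). Camk4 stood at 6.73, 6.78, 6.88 and 6.59 against 7.30, 7.03, 7.31 and 7.18, with both groups narrow.

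The respiratory chain gave a uniform direction with small values. All 42 genes tested were below 0, from -0.37 to -0.03 with a median of -0.16, while 47.6% of all tested probes were above 0. Of them 2 fell, Ndufa8 and Ndufb10, both subunits of complex I. Ndufa8 stood at 10.36, 10.32, 10.49 and 10.23 against 10.72, 10.58, 10.53 and 10.89, and fell by 0.33 (adjusted p = 0.0386, SE 0.09). The list median relative to controls was -0.19, -0.21, -0.07 and -0.19 in animals 1 to 4 and -0.04, -0.09, 0.03 and 0.09 in the controls, so that animal 3 and control 2 overlapped. The median was -0.18 both after quantile normalization was repeated, with 8 genes called, and after median centring, with 1. The count also moved with single animals, to 7 without 3-day animal 3, to 1 without 3-day animal 1, control 1 or control 3, and to 0 without 3-day animal 2, 3-day animal 4 or control 4. Cholesterol synthesis genes were alike, with 16 of 17 below 0, a median of -0.17 and 0 called in limma (7 at an unadjusted p under 0.05). Of the cholesterol genes 3 were called lower without 3-day animal 3, 1 without control 3 and 11 with all 12 controls pooled (median -0.37). By contrast, ribosomal protein genes were opposite, with 37 of 41 above 0, a median of 0.07 and 2 increases, Rps2 and Rplp0, whose probes may share sequence with near-identical copies. Neither ribosomal gene was called without 3-day animal 1. Without any 1 of 3-day animals 2 and 4 and controls 1, 3 and 4, 1 of them was. Within glycolysis Ldha rose by 0.46 (adjusted p = 0.0231, SE 0.11) and Ldhb, the other lactate dehydrogenase chain, fell by 0.28 (adjusted p = 0.00752, SE 0.06). Ldha was not called without 3-day animal 1 or 4 or control 1 or 2. Myelin markers were divided, with Cldn11, of myelin tight junctions, and Aspa rising by 0.78 (adjusted p = 0.0043, SE 0.15) and 0.59 (adjusted p = 0.0242, SE 0.14) while Mbp was at -0.17 (SE 0.11). Only 1 of these 2 increases was called without 3-day animal 1, control 1 or control 3.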

How the data were processed

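Each of the 24 arrays was deposited as intensity values on a linear scale, which the authors made from the scans by RMA (robust multi-array average, with background correction and quantile normalization) in GeneSpring GX. RMA sets all arrays to nearly 1 distribution, so differences are relative to the rest of each array. Array medians ran from 73.6 to 81.3, and depth has no meaning here, so that the number of arrays limits the precision. Sample groups came from titles.

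Values were converted to log2. Of 27342 probes, 15097 carried 1 gene symbol in the platform annotation, 323 several and 11922 none. Probes above the lowest 15 percent by mean log2 (cutoff 5.05) were tested, 23240 in all. One limma model held all 7 groups of the 24 arrays, with moderated variances and Benjamini-Hochberg adjustment over all tested probes (R 4.3.3, limma 3.58.1). It was tested on simulated data. For lists, 1 probe was used for each gene. Named genes were the 12 largest called differences each way with groups apart and outside the tables of the study's main text (its supplementary lists were not used to leave genes out), up to 3 called members of smallest p each way in each list, the 3 most intense markers of each cell type, and the genes whose promoters are shown. Outside this rule Actb, Anxa2, C3, Cd14, Cxcl13, Fcgr1a, Gap43, Gjb6, Isg15, Jun, Klf6, Lcp2, Mx1, Ptpn6 and Ttk, and the genes the report names as such, were chosen after their values were seen. The members and lists were chosen with earlier results of these data known. Further lists also hold genes of the study's main-text tables, such as 2 each in the Fc receptor, p53 and iron lists and 4 in the apoptosis list. The p-values and SEs measure the spread between single-animal arrays, pooled over all 7 groups and not taken from the compared groups alone. The median SD over all tested probes was 0.188 in 10-day controls and 0.155 in 3-day animals. It was 0.141 in 3-week controls, 0.127 in 5-week controls and 0.149 in animals 1 week after transection. The printed SEs thus draw in part on groups with a smaller median spread than the compared groups. Promoter sequences were matched in RefSeq (GRCr8) by gene ID. Alternatives covered the filter, the arrays fitted, moderation, array weights, normalization, a pseudocount, a replicate block, each animal left out and the methods' t-test.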

Additional observations from a re-analysis of the deposited data

Results flagged for a closer look

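In 16 of 192 groups of 4 arrays examined, 1 array lay far from the other 3, by a gap, as a share of the group's whole range, above Dixon's critical value. Chance gives such a gap in about 1 in 20 groups, and the share is printed for each. Transected animal 3 was the low array for the list means of mitosis (0.898), heat shock proteins (0.844) and toll-like receptor signaling (0.902) and the high array for peptide hormones (0.905). It was also low for Tagln (0.868), Vim (0.857), C1qc (0.868), Thrb (0.864) and Kpna2 (0.836). Transected animal 4 was high for lymphocyte markers (0.838) and low for cholesterol synthesis (0.917), and animal 2 was low for Gdpd2 (0.88). Among controls, control 3 was low for apoptosis machinery (0.858) and for oxidase and antioxidant genes (0.948), control 2 was low for neuronal markers (0.833) and control 1 was high for DNA replication (0.946).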

How the results depend on the processing

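Against 465 increases, 206 decreases and 1280 probes whose groups did not overlap, the following settings moved a count by over 1.5 times. With the compared groups alone 21 rose and 1 fell, with all 12 controls pooled 1208 and 909, and with 10-day controls 1 and 2 only 210 and 76, where 4235 probes did not overlap. The methods' t-test on the 8 arrays gave 0 and 0 after Benjamini-Hochberg adjustment (2001 at an unadjusted p under 0.05). Repeating quantile normalization gave 313 decreases. Increases were 69.3% of calls, 57.1% with 12 controls pooled and 95.5% with the compared groups alone. Leaving out 1 animal gave 287 to 673 increases (lowest without 3-day animal 1), 104 to 383 decreases (105 without 3-day animal 2, 383 without 3, 111 without 4 and 104 without control 4) and 1693 to 2722 probes without overlap (2722 without 3-day animal 3, 2048, 2543 and 2212 without controls 2, 3 and 4). The cause was not tested.

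With a replicate block 540 rose and 219 fell, but the numbers name animals only, and deviations of same-numbered arrays correlated at 0.071, 0.087, 0.18 and -0.186. Among 128 called genes recomputed, 0 changed direction under any alternative, 89 were called in all 8 fits that left out an animal, 76 with controls 1 and 2 only and 12 with the compared groups alone. The number of arrays, 4 in each group, limits the precision, and the smallest differences called were 0.27 higher and 0.237 lower on the log2 scale.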
